A study of Mus musculus with 16 samples.

Results

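The circadian clock genes were followed in primary hippocampal cultures of newborn C57BL/6N mice. The 10 genes were chosen by name: the Period genes Per1, Per2 and Per3, the Cryptochrome genes Cry1 and Cry2, the activators Clock and Arntl (also called Bmal1), the nuclear receptor genes Nr1d1 and Nr1d2, and Bhlhe40. They are 10 of the 55385 genes in each deposited table, and all 10 were among the 17222 genes with enough counts to be tested.

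All cultures were infected with a recombinant adeno-associated virus that carries a short hairpin RNA under the U6 promoter together with GFP under the chicken beta-actin promoter. The hairpin was either a control sequence (Control-shRNA) or a single sequence against Dnmt3a1 (Dnmt3a1-shRNA), the longer product of the DNA methyltransferase gene Dnmt3a. Each was studied without stimulation (baseline) or after 4 h of bicuculline, a blocker of GABA-A receptors that makes cultured neurons fire in bursts. The 4 groups held 4 libraries each, made from separate neuronal preparations, and each library held 28912697 to 29586355 counted read pairs. The cultures are mixed, so the values are averages over neurons and other cells, and the U6 promoter is not restricted to neurons. For its injections into the hippocampus the paper chose the viral serotype for its neuronal tropism. Which cells of the cultures carried the hairpin was not measured here. The cultures are not a suprachiasmatic tissue, and the libraries were taken at a single time after stimulation, so no rhythm can be read from them. Whether unstimulated cultures were harvested at the same time of day, or received a vehicle, is not given in the sources used here. A difference of that kind could not be told apart from bicuculline.

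In the textbook scheme of the clock, CLOCK and BMAL1 bind together to E-box sequences and switch on the Period and Cryptochrome genes, whose proteins return to the nucleus and repress CLOCK and BMAL1. In a further loop, the Rev-erb receptors made by Nr1d1 and Nr1d2 repress Arntl, while the ROR receptors activate it through the same DNA element. Per1 and Per2 are also known as genes that calcium and cyclic AMP signals switch on through cyclic AMP response elements (CRE), the route by which light resets the clock of the suprachiasmatic nucleus.

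The treatment and the knockdown were visible in every library. Dnmt3a, counted over all its transcripts, had 312 ± 13.8 CPM (mean ± SD, n = 4), a count scaled by TMM to a common library total, in Control-shRNA cultures at baseline and 44.5 ± 3.66 in Dnmt3a1-shRNA cultures, with no overlap. The activity-regulated genes Arc, Fos and Npas4 had log2 fold changes of 5.64, 6.40 and 7.32 with bicuculline in Control-shRNA cultures. Markers of neurons summed to between 3227 and 4351 TPM, a level per transcript length, over the 16 libraries, against 116 to 332 TPM for astrocyte markers and 1.30 to 5.69 TPM for microglia markers.

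The start regions of the genes give the sequence context of the results. RefSeq start windows on GRCm38.p6, from 250 bases before to 50 bases after an annotated start, were at hand for 8 of the 10 genes, with 12 windows in all. No window is shown for Per2 or Bhlhe40. The windows are shown for the genes that changed most clearly with bicuculline, Per1, Cry1 and Cry2, and for Per3 and Arntl, which carry matches of other kinds. Each is written 5′ to 3′ on the strand of its gene, and capitals mark motif matches on either strand:
Per1, upstream window, chr11:69098699-69098998, plus strand: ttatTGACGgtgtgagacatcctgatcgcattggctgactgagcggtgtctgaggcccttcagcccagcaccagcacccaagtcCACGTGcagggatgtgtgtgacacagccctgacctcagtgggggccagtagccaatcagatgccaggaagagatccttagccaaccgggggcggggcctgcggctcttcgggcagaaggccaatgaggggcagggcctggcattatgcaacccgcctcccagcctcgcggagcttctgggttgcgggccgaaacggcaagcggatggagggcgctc
Per1, downstream window, chr11:69099902-69100201, plus strand: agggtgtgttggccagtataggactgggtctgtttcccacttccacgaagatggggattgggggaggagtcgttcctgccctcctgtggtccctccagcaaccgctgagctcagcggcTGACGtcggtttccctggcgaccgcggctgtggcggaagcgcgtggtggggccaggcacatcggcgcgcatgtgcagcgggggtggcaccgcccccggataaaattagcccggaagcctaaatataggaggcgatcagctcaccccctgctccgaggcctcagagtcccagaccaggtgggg
Cry1, chr10:85185005-85185304, minus strand: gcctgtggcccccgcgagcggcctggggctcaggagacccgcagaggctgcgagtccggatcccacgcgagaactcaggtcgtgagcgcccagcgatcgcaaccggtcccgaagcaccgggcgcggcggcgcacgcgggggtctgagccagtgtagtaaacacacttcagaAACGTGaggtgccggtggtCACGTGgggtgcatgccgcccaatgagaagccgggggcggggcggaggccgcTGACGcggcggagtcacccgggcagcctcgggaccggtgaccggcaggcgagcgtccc
Cry2, chr2:92434020-92434319, minus strand: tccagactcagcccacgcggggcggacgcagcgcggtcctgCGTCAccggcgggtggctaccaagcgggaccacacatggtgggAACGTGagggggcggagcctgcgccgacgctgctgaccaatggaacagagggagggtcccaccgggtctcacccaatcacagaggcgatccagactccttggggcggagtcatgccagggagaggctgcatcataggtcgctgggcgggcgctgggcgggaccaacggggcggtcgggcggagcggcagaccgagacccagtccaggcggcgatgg
Per3, chr4:151044616-151044915, minus strand: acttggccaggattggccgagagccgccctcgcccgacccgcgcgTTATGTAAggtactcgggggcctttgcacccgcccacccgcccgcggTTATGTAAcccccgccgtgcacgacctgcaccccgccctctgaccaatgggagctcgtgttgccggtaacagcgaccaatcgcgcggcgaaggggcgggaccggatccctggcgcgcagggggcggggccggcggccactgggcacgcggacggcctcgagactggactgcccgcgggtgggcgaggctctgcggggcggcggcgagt
Arntl, downstream window, chr7:113207261-113207560, plus strand: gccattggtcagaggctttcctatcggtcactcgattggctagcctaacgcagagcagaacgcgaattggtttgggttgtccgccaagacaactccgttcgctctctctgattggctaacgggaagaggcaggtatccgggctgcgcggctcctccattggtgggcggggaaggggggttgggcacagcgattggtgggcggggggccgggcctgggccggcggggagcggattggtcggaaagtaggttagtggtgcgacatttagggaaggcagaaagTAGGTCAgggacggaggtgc

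The letters searched, on both strands, were the E-box CACGTG, the E-prime box CACGTT, the full CRE TGACGTCA and its core TGACG, which lies inside the full CRE, the D-box as TTATGTAA or TTACGTAA, and the ROR element core TAGGTCA. The E-box was found in 2 of the 12 clock gene windows, at position -166 from the annotated start in the upstream window of Per1 and at -60 in Cry1, and in 7.15% of all 32851 mouse windows. The E-prime box was found in 3 clock gene windows, those of Cry1, Cry2 and Nr1d1, and in 4.68% of all windows.

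The CRE core was in 4 of the 12 clock gene windows, at -246 and -132 in the Per1 windows, at -8 in Cry1 and at -209 in Cry2, and in 20.8% of all windows. No clock gene window held the full CRE, found in 1.79% of all windows. The D-box TTATGTAA occurred at -205 and at -158 in Per3 and in 0.938% of all windows, whereas TTACGTAA was in 0 of the 12 and in 0.119% of all. The ROR element core lay at 30 in the downstream window of Arntl and was in 2.61% of all windows. These are matches of letters, and binding was not measured here.

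**Figure D1:**
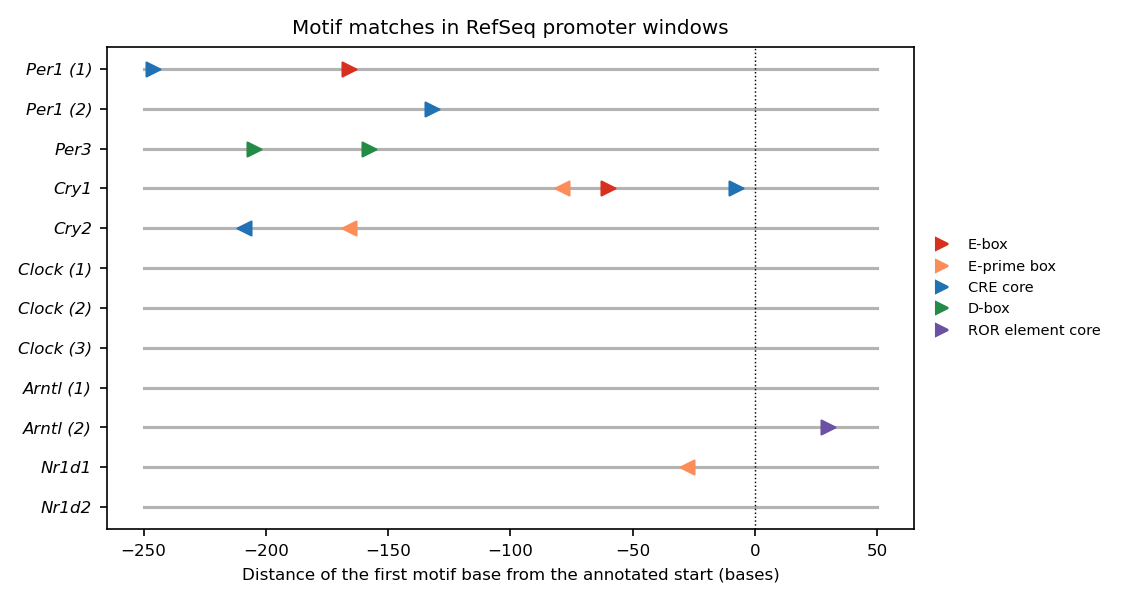
Positions of motif matches (triangles) in the 12 RefSeq start windows of 8 clock genes. Each grey line is a window, the x axis gives the distance of the first motif base from the annotated start in bases, and the triangles point right for matches on the strand of the gene and left for the opposite strand. Per1, Cry1 and Cry2 carry E-box or CRE core matches, Per3 carries the D-box at -205 and -158, and the windows of Clock and Nr1d2 carry no match.

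The first question was how the clock genes responded to neuronal activity in cultures with normal Dnmt3a1. In Control-shRNA cultures, 5 of the 10 clock genes were called as higher with bicuculline, Per1, Per2, Cry1, Cry2 and Arntl, and none was called as lower. A gene was called at a Benjamini-Hochberg adjusted p under 0.05 in edgeR's quasi-likelihood test and an absolute log2 fold change over 0.5. Of all 17222 genes tested, 21.9% were called in this comparison, and 10.8% were called as higher. The median log2 fold change of the 10 clock genes was 0.58, against 0.01 for all genes tested, a value that TMM scaling holds near 0. The median absolute log2 fold change was 0.58 against 0.27. At the adjusted p alone 7 clock genes passed (41.4% of all genes), and in 6 of the 10 the baseline and bicuculline libraries did not overlap (39.7% of all genes).

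Per1 (ENSMUSG00000020893.17, chromosome 11, 69095217 to 69109960, plus strand on GRCm38) encodes a repressor of CLOCK and BMAL1 and is a rapid response gene of the clock. Its levels in the 4 Control-shRNA baseline libraries were 47.2, 47.0, 61.7 and 56.4 CPM. After bicuculline they were 240.3, 274, 251 and 243 CPM. Every stimulated library stood far above every baseline library. The rise was 4.75-fold, a log2 fold change of 2.25 ± 0.09 (SE; edgeR adjusted p = 5.07e-12).

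Per2 (ENSMUSG00000055866.9, chromosome 1, 91415982 to 91459324, minus strand), the partner of Per1 in the repressor complex, started at a lower level of 19.1, 14.7, 18.5 and 16.02 CPM. With bicuculline it reached 96.9, 76.3, 71.5 and 88.0 CPM. The groups were again far apart, and the log2 fold change of 2.28 ± 0.13 (edgeR adjusted p = 1.93e-10) differed from that of Per1 by less than its standard error.

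Per3 (ENSMUSG00000028957.12, chromosome 4, 151003652 to 151044665, minus strand), which the core loop can do without, did not share this response. It had 6.12, 8.06, 7.51 and 7.62 CPM at baseline and 4.58, 5.79, 5.63 and 6.10 CPM with bicuculline. The stimulated libraries all lay below the lowest baseline library, the nearest of them only just. Its log2 fold change was -0.41 ± 0.12 (edgeR adjusted p = 0.00960), under the fold threshold, and it was not called. Libraries scaled by their size alone gave -0.57 and log2(TPM + 0.1) gave -0.65, both past the threshold.

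The Cryptochromes, the repressors that bind CLOCK and BMAL1 directly, rose together. Cry1 (ENSMUSG00000020038.10, chromosome 10, 85131700 to 85185064, minus strand) had 15.6, 15.2, 12.7 and 11.7 CPM at baseline and 33.9, 33.4, 33.1 and 28.6 CPM with bicuculline. The lowest stimulated library was well above the highest baseline library. The log2 fold change was 1.22 ± 0.10 (edgeR adjusted p = 2.66e-08).

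Cry2 (ENSMUSG00000068742.11, chromosome 2, 92403646 to 92434043, minus strand) was the most abundant of the 10 genes in these cultures. It had 118, 118, 112 and 113 CPM at baseline and 272, 290.1, 286 and 300.1 CPM with bicuculline. The gap between the groups was many times the spread within them, and the log2 fold change was 1.32 ± 0.05 (edgeR adjusted p = 2.43e-12). An antisense transcript, D930015M05Rik, shares 4.67% of the exonic bases of Cry2, and whether reads were counted by strand is not given in the sources used here.

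Of the activators, Arntl was higher and Clock was not called. Arntl (ENSMUSG00000055116.8, chromosome 7, 113207465 to 113314126, plus strand) had 24.5, 18.6, 18.3 and 19.98 CPM at baseline and 51.4, 27.2, 28.7 and 27.3 CPM with bicuculline. Replicate 1 was the highest library of both groups, and after stimulation it stood far above the other three. The log2 fold change was 0.72 ± 0.19 (edgeR adjusted p = 0.00501). Without the stimulated replicate 1 it was 0.44 (edgeR adjusted p = 0.0196), under the fold threshold, so the call of Arntl rests on that library. It was also under the threshold on the TPM scale, at 0.48 with a pseudocount of 1 and 0.496 with a pseudocount of 0.1.

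Clock (ENSMUSG00000029238.11, chromosome 5, 76209868 to 76304792, minus strand) had 58.3, 48.9, 57.8 and 60.8 CPM at baseline and 55.7, 43.8, 45.4 and 48.3 CPM with bicuculline. The ranges overlapped, and the log2 fold change of -0.23 ± 0.11 did not pass the test (edgeR adjusted p = 0.105).

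The Rev-erb genes, whose proteins repress Arntl, were not called in Control-shRNA cultures. Nr1d1 (ENSMUSG00000020889.11, chromosome 11, 98767932 to 98775333, minus strand) had 35.2, 43.4, 43.2 and 37.8 CPM at baseline and 23.0, 39.0, 33.6 and 39.3 CPM with bicuculline. The low value of replicate 1 widened the stimulated range, and the log2 fold change was -0.24 ± 0.13 (edgeR adjusted p = 0.166). Nr1d1 shares 8.55% of its exonic bases with Thra, a thyroid hormone receptor gene on the opposite strand, so reads of that stretch may belong to either gene.

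Nr1d2 (ENSMUSG00000021775.11, chromosome 14, 18204054 to 18239127, minus strand) had 27.8, 33.7, 35.9 and 39.9 CPM at baseline and 32.4, 27.5, 30.6 and 38.3 CPM with bicuculline. These ranges nearly coincided, with a log2 fold change of -0.09 ± 0.13 (95% interval -0.36 to 0.17).

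Bhlhe40 (ENSMUSG00000030103.11, chromosome 6, 108660629 to 108666925, plus strand) encodes DEC1, which competes for E-boxes and dampens the loop. It had 18.04, 16.7, 17.4 and 16.2 CPM at baseline and 17.4, 24.1, 25.9 and 25.3 CPM with bicuculline. In 3 stimulated libraries it stood above every baseline library, and in replicate 1 it did not. The log2 fold change was 0.44 ± 0.12 (edgeR adjusted p = 0.00824), just under the fold threshold. Without the stimulated replicate 1 it was 0.55 (edgeR adjusted p = 0.000641) and would be called.

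**Figure D2:**
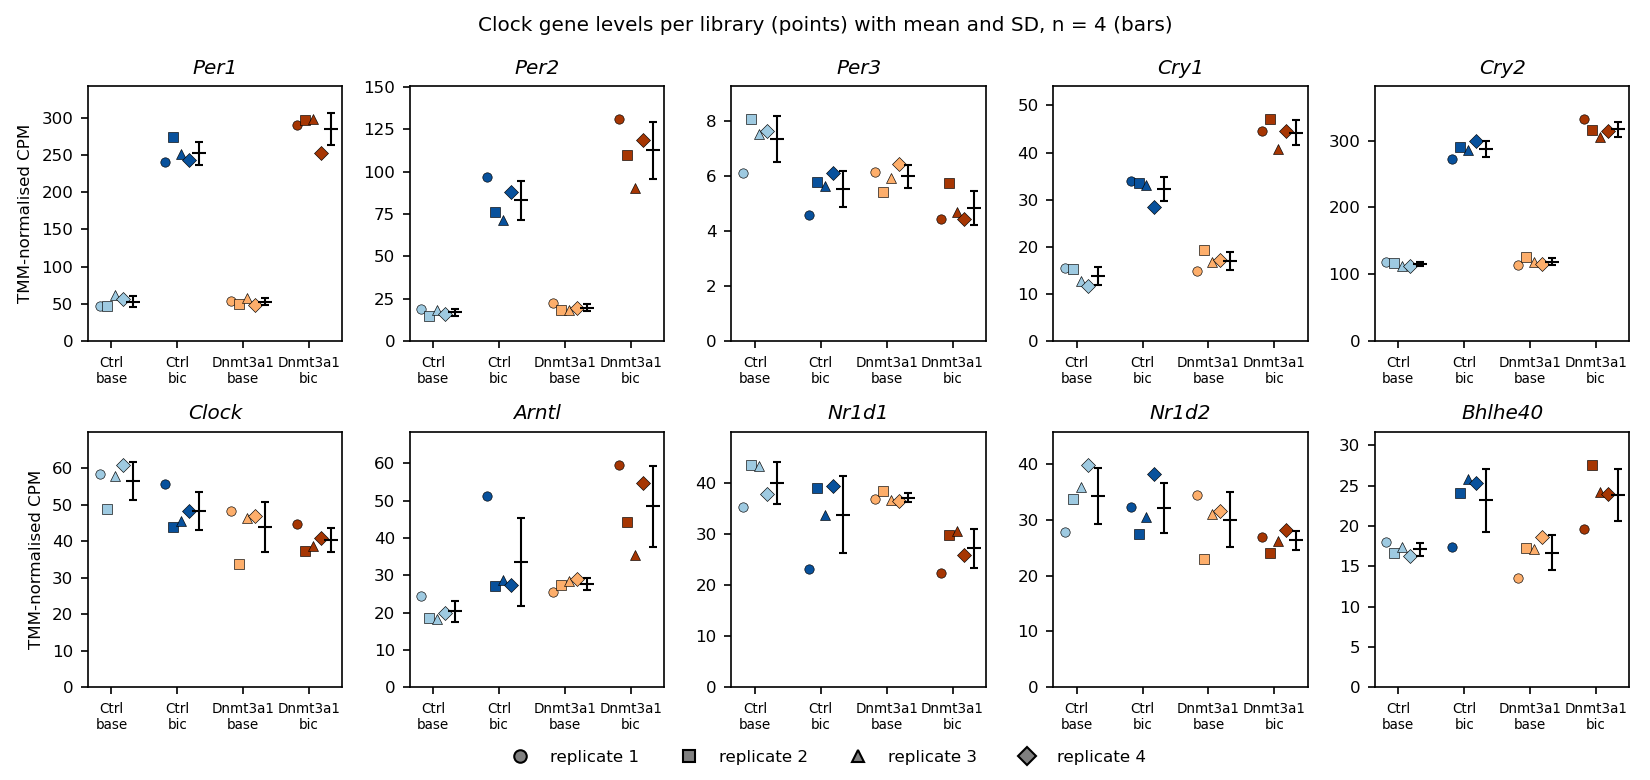
Levels of the 10 clock genes in all 16 libraries. The y axes give TMM-normalised CPM from 0, the points are single libraries with the replicate number as their shape, and the bars give the mean and SD of each group of 4. Per1, Per2, Cry1 and Cry2 separate fully with bicuculline in both shRNA conditions, and the stimulated Control-shRNA replicate 1 of Arntl, at 51.4 CPM, stands apart from the others of its group.

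Per transcript length, bicuculline changed the order of the clock genes. Compared in TPM, the levels at baseline in Control-shRNA cultures ran from Cry2 at 63.9 ± 2.58 TPM (SD, n = 4) through Nr1d1 at 34.6 ± 4.64, Per1 at 28.2, Nr1d2 at 17.1, Arntl at 17.0, Clock at 13.98, Bhlhe40 at 12.4, Cry1 at 10.1 and Per2 at 6.29 to Per3 at 3.14 ± 0.519. In that order the libraries of Nr1d1 and Per1, of Nr1d2 and Arntl, and of Clock and Bhlhe40 overlapped, and those of the other neighbours did not. Beyond neighbours, the range of Nr1d2 also overlapped with those of Clock and Bhlhe40.

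With bicuculline, Cry2 was still highest at 138 ± 11.2 TPM, and Per1 followed at 111 ± 6.29 TPM, the range of each standing clear of the others. Per2 moved from the ninth place to a level of 26.4 ± 2.49 TPM, which overlapped with Nr1d1 at 26.5 ± 5.86 and with Arntl at 24.5 ± 6.95 TPM. Cry1 was at 20.6 ± 1.73 TPM, with a range that overlapped with those of Arntl and Nr1d1. Clock, at 10.4 ± 0.925 TPM, and Per3, at 1.96 ± 0.198 TPM, had the lowest means, and the range of Clock overlapped with that of Bhlhe40. Thus Per3 was the least abundant of the 3 Period genes in both conditions.

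**Figure D3:**
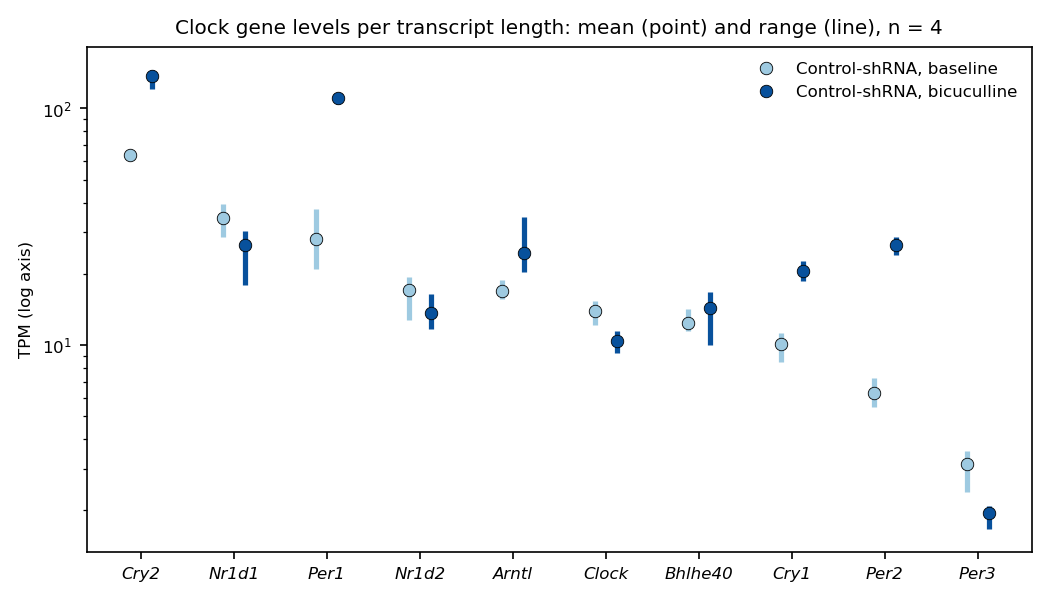
Levels of the 10 clock genes per transcript length in Control-shRNA cultures. The y axis gives TPM on a log scale, points are means of 4 libraries and lines run from the lowest to the highest library. Cry2 is highest in both conditions (63.9 and 138 TPM), and Per1, Per2 and Cry1 are displaced upward with bicuculline while Per3 is lowest throughout.

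In Dnmt3a1-shRNA cultures the same comparison called 6 clock genes, all higher: the 5 called in Control-shRNA cultures and Bhlhe40. Of all genes tested, 25.8% were called in this comparison, and 12.6% were called as higher. The median log2 fold change of the clock genes was 0.66, against -0.01 for all genes tested, and the median absolute value was 0.66 against 0.30. At the adjusted p alone 8 clock genes passed (46.0% of all genes), and 7 did not overlap between the groups (40.4% of all genes).

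Per1 had 54.2, 50.2, 58.6 and 48.3 CPM at baseline and 290.2, 297, 298 and 252 CPM with bicuculline in these cultures. The groups were as far apart as with Control-shRNA, with a log2 fold change of 2.43 ± 0.09 (edgeR adjusted p = 2.15e-12). Per2 had 22.7, 18.2, 18.2 and 19.7 CPM at baseline and 131, 110.1, 90.7 and 119 CPM with bicuculline. Every stimulated library exceeded every baseline library, and the log2 fold change was 2.51 ± 0.13 (edgeR adjusted p = 4.31e-11).

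Cry1 had 14.8, 19.4, 16.9 and 17.1 CPM at baseline and 44.5, 47.1, 40.7 and 44.5 CPM with bicuculline, a log2 fold change of 1.37 ± 0.10 (edgeR adjusted p = 4.11e-09). Cry2 had 114.5, 126, 118 and 116 CPM at baseline and 332, 316, 305 and 315 CPM with bicuculline, a log2 fold change of 1.42 ± 0.05 (edgeR adjusted p = 9.02e-13). Neither Cryptochrome overlapped between the groups.

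Arntl had 25.5, 27.5, 28.5 and 29.1 CPM at baseline and 59.5, 44.4, 35.3 and 54.9 CPM with bicuculline. Here each stimulated library was above all baseline libraries, and leaving out any single library kept the call, with log2 fold changes of 0.69 to 0.93 around the value of 0.81 ± 0.19 from all libraries (edgeR adjusted p = 0.00166). Clock was at 48.3, 33.7, 46.3 and 46.9 CPM at baseline and at 44.8, 37.3, 38.6 and 40.9 CPM with bicuculline. Its ranges overlapped, and its log2 fold change was -0.12 ± 0.11 (95% interval -0.34 to 0.11).

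Bhlhe40 had 13.6, 17.2, 17.1 and 18.7 CPM at baseline and 19.6, 27.5, 24.2 and 23.9 CPM with bicuculline, without overlap. The log2 fold change of 0.52 ± 0.12 (edgeR adjusted p = 0.00233) was just past the fold threshold. It was 0.43 without the baseline replicate 1 and also 0.43 without the stimulated replicate 2, so the call rests on each of these libraries. With libraries scaled by size alone it was 0.37, again under the threshold, and on the TPM scale with pseudocounts of 1 and 0.1 it was 0.31 and 0.33 and did not pass the test (limma adjusted p = 0.144 and 0.139). The interaction of shRNA and bicuculline for Bhlhe40 was 0.08 ± 0.18 and was not called.

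Nr1d1 had 36.9, 38.4, 36.6 and 36.4 CPM at baseline and 22.4, 29.8, 30.5 and 25.9 CPM with bicuculline in Dnmt3a1-shRNA cultures. All stimulated libraries were lower, with a log2 fold change of -0.45 ± 0.14 (edgeR adjusted p = 0.0113) that was under the fold threshold. Scaling by library size alone gave -0.59, which is past it, as were -0.59 and -0.61 on the TPM scale. Without the stimulated replicate 2 or 3 it was -0.501 or -0.51, and Nr1d1 would be called. The remaining genes were not called: Per3 had a log2 fold change of -0.31 ± 0.12 (edgeR adjusted p = 0.0434), with libraries of 5.43 to 6.43 CPM at baseline and 4.43 to 5.74 CPM with bicuculline. On log2(TPM + 0.1) Per3 was at -0.55 (limma adjusted p = 0.00968) and would be called. Nr1d2 had -0.19 ± 0.13, with libraries of 23.0 to 34.6 CPM at baseline and 24.1 to 28.2 CPM with bicuculline.

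The scale of the libraries bears on the small changes. TMM factors lay between 0.871 and 1.12, and with libraries scaled by their size alone the median change over all genes with bicuculline moved to -0.15 on the log2 scale in Control-shRNA and -0.16 in Dnmt3a1-shRNA cultures. The share of higher genes among all called genes then fell from 49.2% to 31.0% and from 48.9% to 32.8%. The direction of no clock gene in either bicuculline comparison changed under any of the 28 alternative settings. In bulk RNA, fewer cells of a type and less RNA per cell cannot be told apart. Among cell markers, Gad1, Gad2 and Dlx1 of the 5 GABAergic markers were called as higher with bicuculline in both shRNA conditions, and in Control-shRNA cultures the 5 summed to 1043 to 1193 TPM at baseline and 1320 to 1485 TPM with bicuculline. In both conditions Slc17a6 was also called as higher, and Tubb3, Neurod6 and the oligodendrocyte marker Mog as lower. None of the tested astrocyte, microglia or fibroblast and vessel markers was called with bicuculline, and the part of cell composition in the clock gene changes was not tested.

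**Figure D4:**
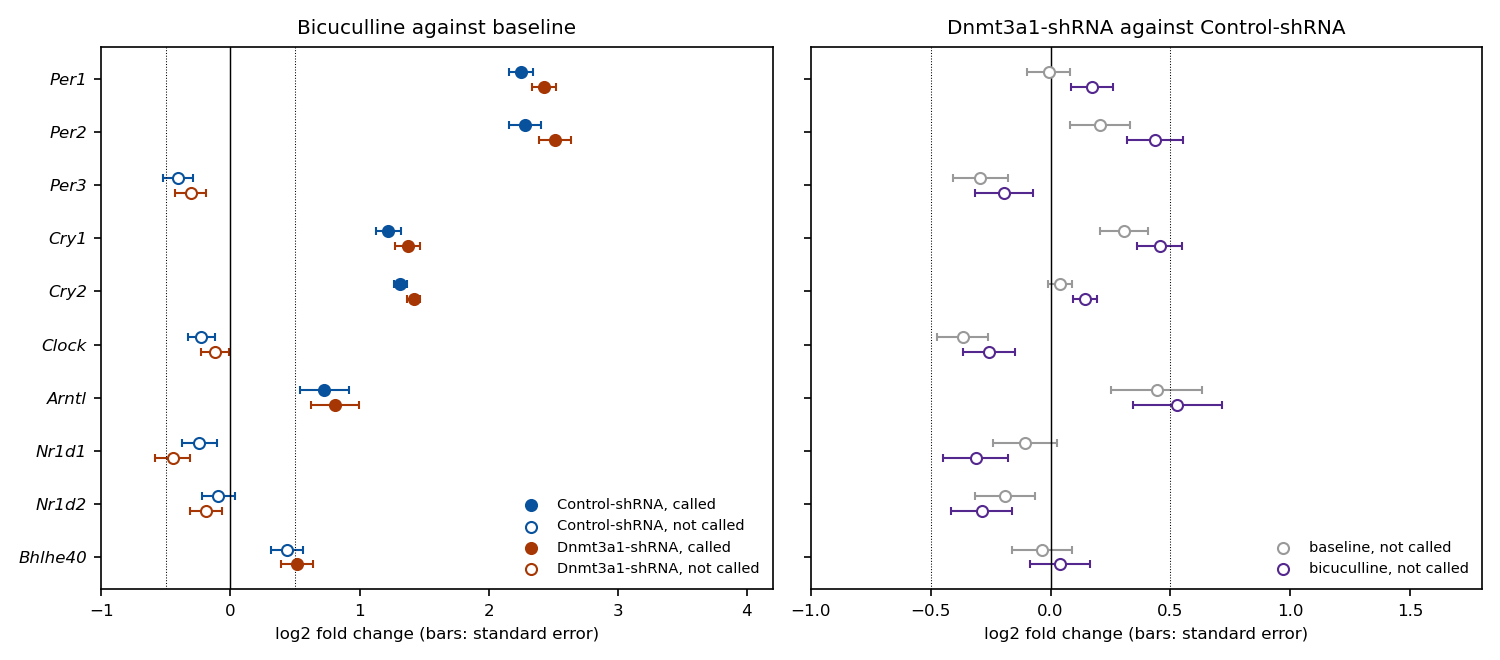
Log2 fold changes of the 10 clock genes from edgeR. The left panel compares bicuculline with baseline in each shRNA condition and the right panel compares Dnmt3a1-shRNA with Control-shRNA in each stimulation condition, bars give the standard error, filled points were called, and dotted lines mark the fold threshold of 0.5. Per1, Per2, Cry1, Cry2 and Arntl are called in both conditions on the left, and no point is filled on the right.

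The next question was whether reduced Dnmt3a1 changed the clock genes. Without stimulation, 0 of the 10 were called between Dnmt3a1-shRNA and Control-shRNA cultures by edgeR, and also 0 by voom and 0 by DESeq2, while 5.83% of all genes tested were called by edgeR. The median log2 fold change was -0.02 for the clock genes and 0.01 for all genes. An unadjusted p under 0.05 was seen for 4 clock genes, against 4967 of the 17222 genes tested, and an adjusted p under 0.05 for 2 (16.3% of all genes). The groups did not overlap for 2 of the 10 (19.9% of all genes).

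Clock and Cry1 were the genes past the adjusted p, both under the fold threshold. Clock was lower in every Dnmt3a1-shRNA library (33.7 to 48.3 CPM) than in every Control-shRNA library (48.9 to 60.8 CPM), with a log2 fold change of -0.37 ± 0.11 (edgeR adjusted p = 0.0262). Cry1 had overlapping ranges of 14.8 to 19.4 and 11.7 to 15.6 CPM and a log2 fold change of 0.31 ± 0.10 (edgeR adjusted p = 0.0435). The Clock value of 33.7 CPM, in replicate 2, lay apart from the others of its group at 46.3 to 48.3 CPM. With single libraries left out the log2 fold changes ran from -0.43 to -0.26 for Clock and from 0.23 to 0.37 for Cry1. For neither gene did the adjusted p stay under 0.05 in all alternative settings. Arntl did not overlap, with 25.5 to 29.1 CPM against 18.3 to 24.5 CPM, but its log2 fold change of 0.44 ± 0.19 did not pass the test (edgeR adjusted p = 0.129).

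Per1 had a log2 difference of -0.01 ± 0.09 between the unstimulated cultures, with a 95% interval of -0.20 to 0.18. For Cry2 the difference was 0.04 ± 0.05, with an interval of -0.06 to 0.15, and its sign changed when libraries were scaled by size alone (-0.04). Per3 differed by -0.29 ± 0.12 (edgeR adjusted p = 0.1003), Per2 by 0.21 ± 0.12, Nr1d1 by -0.11 ± 0.13, Nr1d2 by -0.19 ± 0.13 and Bhlhe40 by -0.04 ± 0.13, none past the test.

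With bicuculline, 0 of the 10 clock genes were called between the shRNA conditions by edgeR, where 5.89% of all genes were called. The method with voom and that with DESeq2 each called 1, Arntl. The median log2 fold change was 0.09 for the clock genes and -0.01 for all genes. An unadjusted p under 0.05 was seen for 7 clock genes, against 5367 of the 17222 genes tested, and an adjusted p under 0.05 for 2 (17.7% of all genes), and 2 of the 10 did not overlap (20.9% of all genes).

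Cry1 was higher in all stimulated Dnmt3a1-shRNA libraries (40.7 to 47.1 CPM) than in all stimulated Control-shRNA libraries (28.6 to 33.9 CPM), with a log2 fold change of 0.46 ± 0.10 (edgeR adjusted p = 0.00301). Per2 had 90.7 to 131 CPM against 71.5 to 96.9 CPM, ranges that overlapped slightly, and a log2 fold change of 0.44 ± 0.12 (edgeR adjusted p = 0.0148). Both were under the fold threshold of 0.5.

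Cry2 did not overlap between the stimulated groups (305 to 332 against 272 to 300.1 CPM), but its difference was small at 0.14 ± 0.05 and missed the threshold (edgeR adjusted p = 0.0556). Arntl had the largest difference, 0.53 ± 0.19, which also missed it (edgeR adjusted p = 0.0593). This value moved with single libraries: without the stimulated Control-shRNA replicate 1 it was 0.80 (edgeR adjusted p = 0.00113) and without the stimulated Dnmt3a1-shRNA replicate 3 it was 0.65 (edgeR adjusted p = 0.0202). In the same 2 fits Per2 was called, at 0.51 and 0.53.

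Per1 differed by 0.17 ± 0.09, Clock by -0.26 ± 0.11, Nr1d1 by -0.31 ± 0.14, Nr1d2 by -0.29 ± 0.13 and Per3 by -0.19 ± 0.12 with bicuculline, none past the adjusted test. Bhlhe40 differed by 0.04 ± 0.12, and its sign changed with libraries scaled by size alone (-0.03). That scaling moved the median of all genes to -0.07 at baseline and -0.08 with bicuculline, and the share of higher genes among all called genes from 30.2% to 14.2% and from 33.9% to 19.2%. One astrocyte marker, S100b, was called as higher and 1 microglia marker, Csf1r, as lower in Dnmt3a1-shRNA cultures in both conditions, both with means under 3 CPM. Tubb3 was called as higher at baseline and Lum, a fibroblast marker, as higher with bicuculline. The 5 GABAergic markers, of which 0 were called, summed to less in Dnmt3a1-shRNA than in Control-shRNA cultures without overlap, at 706 to 906 against 1043 to 1193 TPM at baseline and 1018 to 1189 against 1320 to 1485 TPM with bicuculline. The 5 excitatory markers, also with 0 called, summed to 1332 to 1535 against 1577 to 1678 TPM at baseline and overlapped with bicuculline. By edgeR their median log2 fold change was 0.12 at baseline and 0.24 with bicuculline, opposite in direction to the TPM sum at baseline. That of the GABAergic markers was -0.12 and -0.13, the direction of their sum. A sum is weighted to the most abundant markers. The tested astrocyte markers had medians of 0.41 at baseline and 0.43 with bicuculline, and the fibroblast and vessel markers 0.35 and 0.38. Those of the neuron markers were 0.09 and 0.06, and those of the oligodendrocyte markers -0.01 and -0.04. The part of these markers in the clock gene differences was not tested.

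Whether the response to bicuculline itself depended on Dnmt3a1 was asked by the interaction of shRNA and stimulation. It was called for 0 of the 10 clock genes, as for 0% of all genes tested by edgeR. No clock gene had an unadjusted p under 0.05, against 852 of all genes, and voom and DESeq2 also called 0 clock genes. The interaction is the difference of the log2 fold changes, Dnmt3a1-shRNA minus Control-shRNA. It was 0.18 for Per1 (95% interval -0.09 to 0.45), 0.23 for Per2 (-0.13 to 0.59), 0.15 for Cry1 (-0.14 to 0.44) and 0.10 for Cry2 (-0.05 to 0.25). For Arntl it was 0.09 with a wide interval of -0.47 to 0.65, and for Nr1d1 it was -0.21 (-0.61 to 0.19). The median over the 10 was 0.10, against -0.02 for all genes.

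Around these genes, a list of 24 further clock genes was examined, of which 23 were tested. In Control-shRNA cultures 6 of the 23 were called with bicuculline (21.9% of all genes), 5 higher and 1 lower, and the median log2 fold change of the list was -0.03. In Dnmt3a1-shRNA cultures 8 were called (25.8% of all genes), the same 5 higher and 3 lower, with a median of 0.05.

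Nfil3, which encodes the repressor that competes with DBP, TEF and HLF at D-boxes, had the largest change among the clock genes tested. It went from 22.1 ± 3.08 CPM (SD, n = 4) to 261 ± 46.1 CPM in Control-shRNA cultures, a log2 fold change of 3.56 ± 0.13 (edgeR adjusted p = 1.27e-12), and by 3.26 ± 0.13 in Dnmt3a1-shRNA cultures. The activators of the same element, Dbp, Tef and Hlf, were not called in either. Dbp, a classical output gene of the clock, had log2 fold changes of -0.33 ± 0.18 and -0.41 ± 0.18. Tef was lower without overlap in both, by small log2 fold changes of -0.21 ± 0.06 (edgeR adjusted p = 0.0146) and -0.36 ± 0.06 (edgeR adjusted p = 0.000143).

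Sik1, a kinase that limits CREB coactivators after light pulses, rose from 28.6 ± 0.909 to 126 ± 8.56 CPM in Control-shRNA cultures, a log2 fold change of 2.14 ± 0.06 (edgeR adjusted p = 1.80e-13). Rorb, a ROR receptor gene of neurons, rose from 2.09 ± 0.703 to 7.78 ± 2.03 CPM, by 1.89 ± 0.23 on the log2 scale. Noct, the gene of the rhythmic enzyme nocturnin, rose from 114 ± 7.63 to 323 ± 40.7 CPM, by 1.503 ± 0.10. Usp2, a deubiquitinase gene under clock control, rose from 39.9 ± 5.29 to 72.4 ± 3.96 CPM, by 0.86 ± 0.10. In Dnmt3a1-shRNA cultures the log2 fold changes of these 4 were 1.98, 1.73, 1.52 and 0.54. The value of Usp2 there fell under the fold threshold without the baseline replicate 4 (0.48) or the stimulated replicate 3 (0.47) and with libraries scaled by size alone (0.396). On the TPM scale it was 0.30 and 0.31 with pseudocounts of 1 and 0.1 and did not pass the test (limma adjusted p = 0.200 and 0.195).

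Timeless, which in mammals acts mainly at replication forks, fell from 1.33 ± 0.193 to 0.591 ± 0.187 CPM in Control-shRNA cultures, a log2 fold change of -1.16 ± 0.22 at a low level, and had -0.75 ± 0.23 in Dnmt3a1-shRNA cultures. On the TPM scale it was not called, with -0.32 and -0.05 at a pseudocount of 1. Ciart and Cipc, both genes of further repressors of CLOCK and BMAL1, were called as lower in Dnmt3a1-shRNA cultures, with log2 fold changes of -0.65 ± 0.17 and -0.52 ± 0.05. Cipc was at -0.49, just under the threshold, without the stimulated replicate 2, with DESeq2 and with DESeq2 size factors in edgeR. In Control-shRNA cultures Ciart had -0.32 (edgeR adjusted p = 0.132) and Cipc -0.34 (edgeR adjusted p = 7.11e-05), and neither was called. Cipc there passed the test and was only under the fold threshold. The interaction of shRNA and bicuculline was called for 0 of the 23 further genes, as for 0% of all genes tested. None of the 7 kinase and ubiquitin ligase genes was called with bicuculline. Csnk1d, the gene of a kinase that phosphorylates Period proteins, had small log2 fold changes of 0.24 ± 0.05 and 0.28 ± 0.05. It differed without overlap between the shRNA conditions, lower with Dnmt3a1-shRNA, but was not called. Its libraries were at 83.6 to 93.6 against 116 to 120 CPM at baseline and at 107 to 110 against 136 to 143 CPM with bicuculline. Of all genes tested, 19.9% and 20.9% did not overlap in these comparisons.

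Between the shRNA conditions, 2 of the 23 were called at baseline by edgeR, by voom and by DESeq2 (5.83% of all genes by edgeR). There 6 had an edgeR adjusted p under 0.05 (16.3% of all genes) and 7 an unadjusted p under 0.05, against 4967 of the 17222 genes. With bicuculline 0 were called by each of the 3, where in edgeR 5 had an adjusted p under 0.05 (17.7% of all genes) and 10 an unadjusted p under 0.05, against 5367 of the 17222 genes. Nfil3 was higher in unstimulated Dnmt3a1-shRNA cultures, at 33.6 ± 2.66 against 22.1 ± 3.08 CPM, a log2 fold change of 0.60 ± 0.12 (edgeR adjusted p = 0.00258). On the TPM scale its value was 0.48 and 0.49 with pseudocounts of 1 and 0.1, under the fold threshold. Fbxl21, the gene of an F-box protein that acts on Cryptochrome stability, was lower at 1.06 ± 0.314 against 1.71 ± 0.280 CPM, a log2 fold change of -0.69 ± 0.21 (edgeR adjusted p = 0.0328). This call was lost without the Control-shRNA replicate 1, 2 or 3 or the Dnmt3a1-shRNA replicate 1 or 4, with adjusted p-values of 0.0548 to 0.106 in edgeR, and also without a filter on low counts and with only the groups compared in the fit (edgeR adjusted p = 0.0700 and 0.0727).

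**Figure D5:**
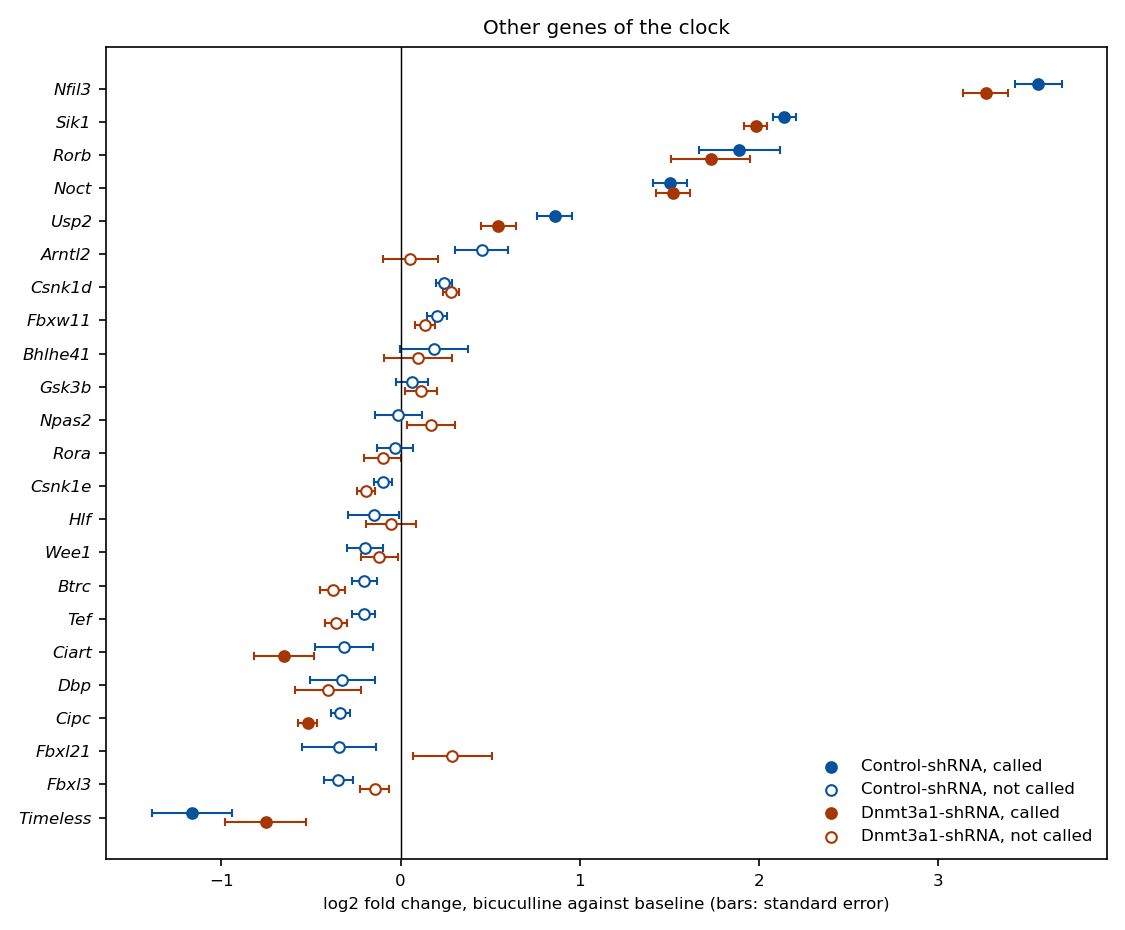
Log2 fold changes with bicuculline of 23 further clock genes from edgeR in Control-shRNA and Dnmt3a1-shRNA cultures. Points are estimates, bars are standard errors and filled points were called. Nfil3 (3.56 and 3.26), Sik1, Rorb, Noct and Usp2 are called as higher in both, Timeless as lower in both, and Ciart and Cipc as lower in Dnmt3a1-shRNA cultures.

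For each clock gene called in Control-shRNA cultures, the genes with the closest pattern over the 16 libraries were found by the root mean square distance of log2 CPM, each gene centred on its mean, among 13879 genes of at least 1 CPM. A distance near 0 means that both the size of the changes and the scatter between libraries were alike. The genes closest to Per1 were Fosl2, of the AP-1 family (0.104), Adamts1, a secreted protease (0.111), and Slc2a3, a neuronal glucose transporter (0.160). Those closest to Per2 were Rnf217 (0.135), Erf (0.139) and Scg2, a granin (0.149).

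Among those closest to Cry1 were Lnx2 (0.133) and Odc1, an enzyme of polyamine synthesis (0.145). For Cry2 they were Sipa1l2 (0.102), Rai2 (0.106) and F8a (0.112). For Arntl the closest were Slitrk2 (0.195), Nol4 (0.196) and Rybp (0.207), so no gene compared followed Arntl as closely as the named genes followed the Period and Cryptochrome genes. None of the genes named here for their pattern was itself a clock gene of the lists.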

How the data were processed

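RNA of 16 cultures, 4 in each group, was sequenced in paired-end reads. The authors trimmed the reads with Trim Galore 0.6.4 and quantified them with kallisto on GRCm38.p6, and they deposited an estimated count per gene, not scaled for depth, and a TPM value per gene, scaled for transcript length and library total. Groups and replicate numbers were taken from the sample labels. Libraries of the same group always differed by more than sampling noise, with chi-square values of 7.64 to 42.6 for each degree of freedom. Of the 55385 identifiers, 54487 matched GENCODE M21 with their version, which gave symbols and coordinates, and all clock genes matched. Start windows came from RefSeq on GRCm38.p6.

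The estimated counts were rounded and analysed with edgeR (version 4.0.16, in R 4.3.3), with TMM scaling, edgeR's filter on low counts and 1 quasi-likelihood fit of the 4 groups, without a block for the replicate number. Benjamini-Hochberg adjustment covered the 17222 genes that passed the filter. CPM values are TMM-normalised, and intervals of log2 fold changes are 95% intervals from the same fit. Pairing was checked across genes by correlating how libraries with the same number departed from the means of their groups. Between the Control-shRNA groups r was 0.142 to 0.221, and between the baseline groups it was 0.204 to 0.355, above 0.1 for every number. Correlations between libraries of different numbers were not computed, so the check cannot say that a number marks a shared preparation. In these comparisons the replicate block changed no call of a clock gene. Of all genes it called 3986 instead of 3765 and 1284 instead of 1004. The study gives the preparations within a condition as independent and does not say whether a number marks a shared one.

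The alternatives were voom with limma 3.58.1, DESeq2 1.42.0, other scalings and filters, limma on log2 TPM with a pseudocount of 1 or 0.1, a fit of only the groups compared, other fold thresholds, the replicate block and fits without each single library. The 10 genes, the further clock genes and the motifs were chosen with earlier results of these data known. Named are the 10 genes, those of the 24 further genes that were called in any comparison, Dnmt3a, Arc, Fos, Npas4, cell markers and, for each clock gene called in Control-shRNA cultures, the 3 genes of closest pattern, of which 1 is not reported here. Dbp, Tef, Hlf and Csnk1d fall outside this rule and were named after their values were seen.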

Additional observations from a re-analysis of the deposited data

Results flagged for a closer look

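Among the 40 sets of 4 libraries (10 clock genes in 4 groups), 4 held a library whose gap to its nearest neighbour, divided by the range of the set, was above Dixon's 95% critical value. Chance gives about 1 in 20 such sets. Arntl was at 51.4 CPM in replicate 1 of the stimulated Control-shRNA cultures, against 27.2 to 28.7 CPM in the others (ratio 0.940). Clock was at 33.7 CPM in replicate 2 of the unstimulated Dnmt3a1-shRNA cultures, against 46.3 to 48.3 CPM (ratio 0.864). Cry1 was at 28.6 CPM in replicate 4 of the stimulated Control-shRNA cultures, against 33.1 to 33.9 CPM (ratio 0.840). Per1 was at 252 CPM in replicate 4 of the stimulated Dnmt3a1-shRNA cultures, against 290.2 to 298 CPM (ratio 0.835). The cause of these values was not tested.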

How the results depend on the processing

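The count of the 10 clock genes called with bicuculline was 5 in Control-shRNA cultures (5 in every fit with a library left out, though without the stimulated replicate 1 Arntl was lost and Bhlhe40 gained, and 4 to 7 under the other alternatives) and 6 in Dnmt3a1-shRNA cultures (5 to 7, and 4 to 8). Per1, Per2, Cry1 and Cry2 kept their direction and call in both under all 28 alternatives, with log2 fold changes of 1.97 to 2.33, 1.91 to 2.35, 0.97 to 1.29 and 1.09 to 1.34 in Control-shRNA cultures. Between the shRNA conditions at baseline the count of 0 became 1 on log2(TPM + 0.1) (Clock, -0.52) and 2 without a fold threshold. With bicuculline it became 1 with voom (Arntl, 0.56, adjusted p = 0.0412), 1 with DESeq2 (0.54, adjusted p = 0.0272), 1 without a filter on low counts (0.53, adjusted p = 0.0159) and 2 without a fold threshold, and it was 0 to 2 with a library left out. The cause was not tested. In that comparison r of same-numbered libraries was 0.0667 to 0.388, above 0.1 for the numbers 1 to 3 and under it for 4, and pairing was not shown. With the replicate block Arntl was the 1 clock gene called there (0.54, edgeR adjusted p = 0.00586). Between baseline and bicuculline in Dnmt3a1-shRNA cultures r was 0.0631 to 0.337. The block changed no other call of a clock gene. The interaction called 0 clock genes under every alternative.

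Signs changed only for differences near 0. The difference of Cry2 at baseline was -0.037 with library sizes alone, and -0.077 and -0.078 on the TPM scale with pseudocounts of 1 and 0.1. That of Bhlhe40 with bicuculline was -0.032, -0.045 and -0.047 under the same settings. The interaction of Nr1d2 was 0.0066 and 0.0034 on the TPM scale. With a library left out, Per1 at baseline ranged from -0.061 to 0.073, Bhlhe40 from -0.096 to 0.050 at baseline and from -0.079 to 0.12 with bicuculline, and the interactions ran from -0.027 to 0.36 for Arntl, from -0.040 to 0.16 for Bhlhe40 and from -0.20 to 0.011 for Nr1d2. Of 1370 values of the 10 single genes under alternatives, 1311 kept direction and side of the threshold, 26 passed it newly, 11 no longer passed it and 22 changed sign. Of the further clock genes, 13 were called without a fold threshold in Control-shRNA cultures instead of 6, and 4 at a threshold of 1 in Dnmt3a1-shRNA cultures instead of 8. Depth was alike in all libraries, and how it limits single genes was not compared.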

Other observations

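In both stimulated groups, replicate 1 stood at the edge of the range for the same clock genes, a pattern noticed after the values were seen. It had the highest Arntl (51.4 CPM with Control-shRNA and 59.5 with Dnmt3a1-shRNA), the highest Per2 (96.9 and 131 CPM) and the highest Clock (55.7 and 44.8 CPM). It had the lowest Nr1d1 (23.0 and 22.4 CPM) and the lowest Bhlhe40 (17.4 and 19.6 CPM). At baseline, replicate 1 had the highest Per2 in both shRNA conditions (19.1 CPM with Control-shRNA and 22.7 with Dnmt3a1-shRNA). Arntl was highest in it with Control-shRNA (24.5 CPM) and lowest with Dnmt3a1-shRNA (25.5 CPM). Bhlhe40 too was highest in it with Control-shRNA (18.04 CPM) and lowest with Dnmt3a1-shRNA (13.6 CPM). Nr1d1 was lowest in it with Control-shRNA only (35.2 CPM), and Clock highest with Dnmt3a1-shRNA only (48.3 CPM). Replicate 1 had the lowest TMM factor of each of the 4 groups, at 0.871 to 1.04. The cause was not tested.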
